A study of Mus musculus with 11 samples.

Results

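The baseline transcriptome of vehicle-treated habenula tissue was described from the 5 control libraries of an 11-library RNA-seq study of mice. The libraries were taken by their treatment label, with no measured value used. All genes of the deposited count table were then ranked by their mean level and by their spread over those 5. All 5 libraries came from BALB/c mice 3 months old, 3 from females (numbered 1, 2 and 3) and 2 from males (numbered 1 and 3). The mice had received only vehicle, injected as the agents were in the other 6 libraries. Those 6 came from mice with collagen antibody induced arthritis (CAIA), evoked by an intraperitoneal cocktail of 5 antibody clones against type II collagen at 50 mg/kg and, 3 days later, lipopolysaccharide at 1 mg/kg. The CAIA libraries entered here only as a source for the shared estimate of spread in the comparison of females with males, and no effect of treatment is given. The tissue is labelled LHb, the lateral habenula, and was cut from brain slices by hand. The labels do not say whether the libraries came from separate animals or from pools, so the p-values below measure only the spread between these samples, which may be technical.

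The habenula is a small paired nucleus of the dorsal midline. Its lateral division holds glutamatergic neurons that project to the midbrain and act, mostly through inhibitory relays, on dopamine and serotonin neurons, and it is known for its activity during aversive events and omitted reward. The medial division, which lies against the ventricle and its choroid plexus, sends glutamate together with acetylcholine or tachykinin peptides to the interpeduncular nucleus. The thalamus lies below and beside both divisions, the hippocampus above and the pineal gland behind, so a dissected piece can hold RNA of each. In bulk tissue, fewer cells of a type and less RNA per cell cannot be told apart.

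Library totals were 25839148 to 28411529 counts. Levels of 1 gene across libraries are given as CPM, counts scaled to library size, and levels of different genes are compared as TPM, which divides counts by exon length before scaling. Unless stated otherwise, a list of 5 values runs from female control 1, 2 and 3 to male control 1 and 3, an error is an SD over the 5 libraries, and a spread is the SD of log2(CPM + 0.5).

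Of the 5 libraries, 3 stood apart from the rest. Female control 1 had the highest level of the hippocampus and cortex list and of the immediate early gene list. Female control 3 had the second highest hippocampus and cortex level, the highest choroid plexus and ependyma levels and the lowest thalamus level. Male control 1 differed by transcript length. Protein-coding genes in the shortest of 5 equal bins by transcript length were a median of 0.27 higher on the log2 scale than in the other 4 libraries, and those in the longest bin were a median of -0.27 from them. The longest-minus-shortest difference was -0.55 in male control 1 and 0.04 to 0.17 in the other libraries. Values that rest on these libraries are given library by library.

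**Figure D1:**
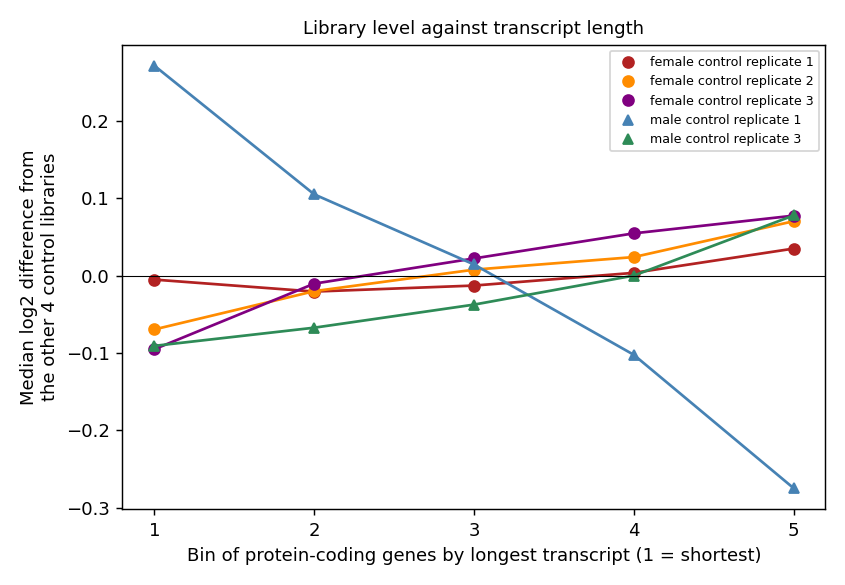
Median log2 difference of each control library from the other 4 (y axis) for protein-coding genes in 5 equal bins of longest annotated transcript length (x axis, 1 is the shortest). Male control 1 goes from 0.27 in the shortest bin to -0.27 in the longest, and the other 4 libraries stay between -0.09 and 0.08.

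Habenula markers were detected throughout. All 8 lateral habenula markers were at or above 1 CPM in all 5 libraries, as were 13452 of 21995 protein-coding genes. Passing that cutoff does not by itself mark a tissue, here or in the lists below. The level of the 8 markers, the mean over members of log2(CPM + 0.5), lay between 6.90 and 7.06. That was the narrowest range of the 3 habenula lists. Single members varied more, with a median spread of 0.23, and were not all highest in the same library. The narrow range of their mean therefore does not show that each member was even. Gap43, a growth cone protein kept by some adult neurons, had the highest TPM of the list at 563 ± 94.8, followed by the granin-family peptide precursor Vgf at 356 ± 70.1 and the orphan receptor Gpr151 at 336 ± 69.5. Gpr151, a receptor known for its strong habenula expression, measured 136, 140, 204, 156 and 180 CPM. It was highest in female control 3. The serotonin receptor gene Htr2c measured 163, 215, 211, 190 and 204 CPM and the protocadherin gene Pcdh10 278, 333, 242, 235 and 284 CPM. Both were highest in female control 2. Htr2c was lowest in female control 1, also the lowest library of the choroid plexus list, whose highest was female control 3. The part of choroid plexus in Htr2c was not tested.

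All 12 medial habenula markers were also at or above 1 CPM in every library, beside those of the lateral division that the label names. Their level was 5.85, 5.71, 6.30, 5.86 and 6.19, a 1.51-fold range with female control 3 highest and female control 2 lowest. Tac2, which encodes the neurokinin B precursor, led the list at 381 ± 68.6 TPM and measured 119, 117, 161, 163 and 160 CPM. Tac1, the substance P precursor, was lower at 28.3 ± 7.14 TPM and measured 22.0, 19.5, 35.4, 29.8 and 25.3 CPM. The choline acetyltransferase gene Chat measured 29.7, 23.7, 36.4, 23.3 and 41.2 CPM. Female control 3 and male control 3 were the highest in Chat, and the same pair was highest in the nicotinic subunit genes Chrna3 and Chrnb4 and in Nwd2.

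Of 9 habenula transcription factors, 8 were at or above 1 CPM in all 5 libraries. Zic1, a zinc finger factor of the dorsal midline, was highest at 507 ± 67.5 TPM, and its range did not overlap that of Nr4a2 at 155 ± 40.3 TPM. Pou4f1, which specifies habenula neurons, measured 133, 131, 179, 132 and 178 CPM. Nr4a2 measured 154, 143, 214, 134 and 213 CPM. In both genes female control 3 and male control 3 lay above the other 3 libraries with no overlap, as in Chat, Chrna3 and Chrnb4.

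**Figure D2:**
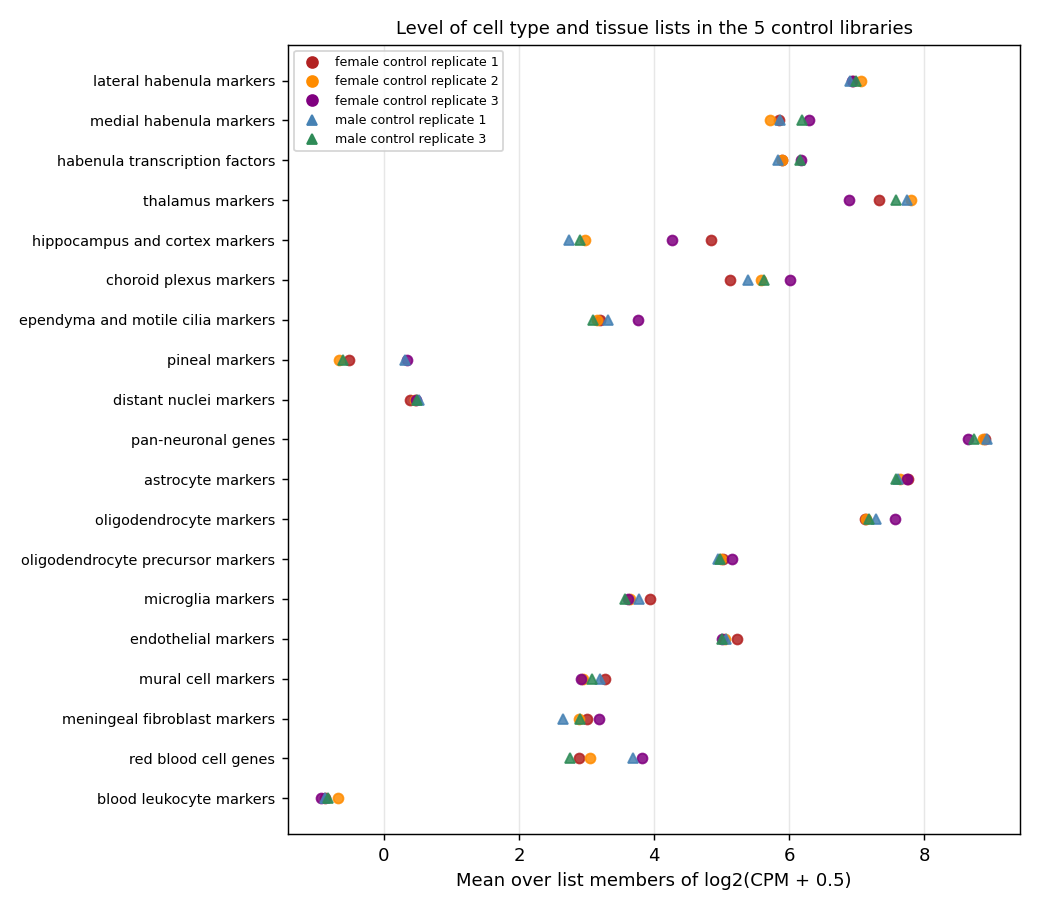
Level of each cell type and tissue list (x axis, mean over members of log2(CPM + 0.5)) in the 3 female (circles) and 2 male (triangles) control libraries. The lateral habenula list spans 6.90 to 7.06, while the hippocampus and cortex list spans 2.74 to 4.85, with female control 1 and 3 at the high end.

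Markers of neighbouring tissue were measured in every library, at unequal levels. All 11 thalamus markers were at or above 1 CPM in all 5 libraries. Their summed level was 1496 ± 355 TPM, beside 1470 ± 103 TPM for the 8 lateral habenula markers. The lists hold different genes, and Gap43 alone gave 563 TPM of the second sum, so the sums do not compare amounts of tissue. Prkcd, a kinase gene of thalamic relay neurons, measured 448, 639, 252, 656 and 580 CPM. Tnnt1, a troponin gene used as a thalamic marker, measured 19.4, 23.9, 10.1, 39.9 and 28.1 CPM. Female control 3 was the lowest in both, and in the thalamus list as a whole, at 6.89 against 7.33 to 7.80. The same library was the highest of the medial habenula list.

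The hippocampus and cortex list had the widest range of the tissue lists, 4.31-fold between female control 1 at 4.85 and male control 1 at 2.74. Of its 12 members 7 were at or above 1 CPM in all 5 libraries, and 9 of 12 had a spread above 0.5. Among the 12280 genes that averaged 5 CPM or more, 1.68% had such a spread. The list members were counted at a lower floor, a mean of 1 CPM. At that floor 430 genes of the table had such a spread, against 206 at 5 CPM. Tbr1, a transcription factor of cortical excitatory neurons, measured 43.4, 1.49, 20.3, 1.28 and 0.759 CPM. Wipf3 measured 51.4, 24.2, 84.0, 20.9 and 27.5 CPM. Tbr1 was thus highest in female control 1 and Wipf3 in female control 3, and both were above the other 3 libraries in each of the 2. Slc17a7, which is on this list but is also expressed in the medial habenula, was less uneven at 640, 436, 462, 458 and 509 CPM.

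Choroid plexus markers were detected in all 5 libraries, with 15 of 15 at or above 1 CPM. Ttr, the thyroxine carrier that choroid plexus epithelium secretes, reached 7407 ± 2294 TPM and measured 1467, 1994, 3286, 2702 and 2574 CPM. Enpp2 (autotaxin), which oligodendrocytes also express, measured 912, 1251, 1731, 1162 and 1429 CPM. Female control 3 was highest and female control 1 lowest in both, and in the list as a whole. All 12 markers of ependyma and motile cilia were detected at 1 CPM or above, led by Foxj1, the master factor of motile cilia, at 62.2 ± 10.2 TPM, with the list again highest in female control 3.

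The list of 11 pineal markers was at a level of 0.35 in female control 3 and 0.30 in male control 1, against -0.66 to -0.51 in the other 3 libraries. Tph1, the tryptophan hydroxylase of the pineal gland, measured 0.117, 0.196, 4.39, 4.06 and 0 CPM, and the homeobox gene Bsx 0.117, 0.0785, 1.43, 0.827 and 0 CPM. Female control 3 and male control 1 were the highest in both genes, without overlap. A count of 0 allows up to 0.110 CPM in male control 3 (3 counts, counting error only). Aanat, the melatonin-pathway acetyltransferase and the highest of the list per length, did not divide the libraries in this way and was above that limit in all 5, at 0.777, 0.981, 1.19, 1.47 and 1.19 CPM. Female control 3 and male control 1 were also highest in haemoglobin genes, with Hbb-bs at 28.4, 31.2, 54.9, 52.9 and 27.0 CPM. Markers of more distant nuclei, such as the hypothalamic peptide genes Pomc and Agrp, were scarce. Of 12, 3 reached 1 CPM in all 5 libraries, and the phosphatase inhibitor gene Ppp1r1b held 95.3 of the list's 113 TPM.

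Glial and vascular genes varied less. Of the astrocyte markers 12 of 12 were detected, and their level spanned 7.58 to 7.75. Aldoc led the list at 669 ± 85.1 TPM. Kcnj10, the inward rectifier of astrocytes, followed at 420 ± 47.2 TPM and measured 637, 702, 579, 563 and 644 CPM, with a spread of 0.13 against a median of 0.15 over the 12280 genes that averaged 5 CPM or more. Not all astrocyte genes were so even, and 2 of the less even are given here. Slc1a2, the main astrocyte glutamate transporter, measured 2111, 1370, 1267, 978 and 1242 CPM, and Gfap, the astrocyte filament protein, 229, 208, 392, 216 and 211 CPM. The first was highest in female control 1 and the second in female control 3.

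Myelin genes were among the most abundant of the tissue. Mbp, myelin basic protein, measured 1878, 1763, 2392, 2172 and 1987 CPM, highest in female control 3. The oligodendrocyte list had a 1.37-fold range over the libraries and the precursor list a 1.15-fold range, the latter led by Bcas1 at 113 ± 11.8 TPM. All 12 microglia markers were detected, among them the complement gene C1qa at 89.2 ± 13.9 TPM. The tight junction gene Cldn5 was the most uneven endothelial marker at 35.4, 27.7, 19.4, 52.3 and 21.7 CPM, while Slc2a1, the glucose transporter of the blood-brain barrier, spanned only 132 to 165 CPM. None of the 8 blood leukocyte markers reached 1 CPM in any library, and the neutrophil gene Ly6g had 0 counts in all 5.

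Of 54532 genes in the table, 14774 were at or above 1 CPM in all 5 libraries, 16567 in at least 1, and 21644 had 0 counts in all 5. Protein-coding genes made up 13452 of the 14774 and 97.2% of counts. The 10 highest genes held 3.97 ± 0.187% of counts, the 100 highest 15.1 ± 0.161% and the 1000 highest 45.7 ± 0.788%. A mean of at least 100 CPM was reached by 2423 genes and of at least 1000 CPM by 60.

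Mitochondrially encoded genes held 3.30% of counts. mt-Co1, a cytochrome oxidase subunit, was the highest gene of the table at 12184, 11078, 12382, 11732 and 11399 CPM, followed by mt-Cytb at 4782 ± 248 CPM and mt-Nd1 at 3453 ± 229 CPM. mt-Nd5 measured 3628, 3474, 3607, 2634 and 3629 CPM, with male control 1 alone low. The levels of genes from this 1 genome were unequal per length. mt-Co1 reached 27627 ± 1433 TPM, whereas mt-Co2 reached 332 ± 103 TPM and mt-Co3 219 ± 119 TPM. Nuclear copies of mitochondrial sequence could take reads of such genes in the authors' counting, but this was not tested. The levels of the low genes are therefore uncertain.

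Among nuclear genes the highest mean CPM belonged to Meg3, an imprinted long noncoding RNA on chromosome 12 (109541001 to 109571726, GRCm38), at 3084, 3726, 2952, 3122 and 4003 CPM. Ttr stood at 2405 ± 697 CPM and CT010467.1, annotated as ribosomal RNA, at 2757, 1309, 1319, 2921 and 3438 CPM. The ribosomal feature fell into a high set of 3 libraries and a low set of 2 (female control 2 and 3) with no overlap. Cpe, the carboxypeptidase that trims neuropeptide precursors, had 2265 ± 132 CPM, and Gabbr1, a GABA B receptor subunit, 2083 ± 176 CPM. The chaperone gene Hsp90ab1 and the matrix gene Sparcl1 were the most even of these, with spreads of 0.03 and 0.05.

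**Figure D3:**
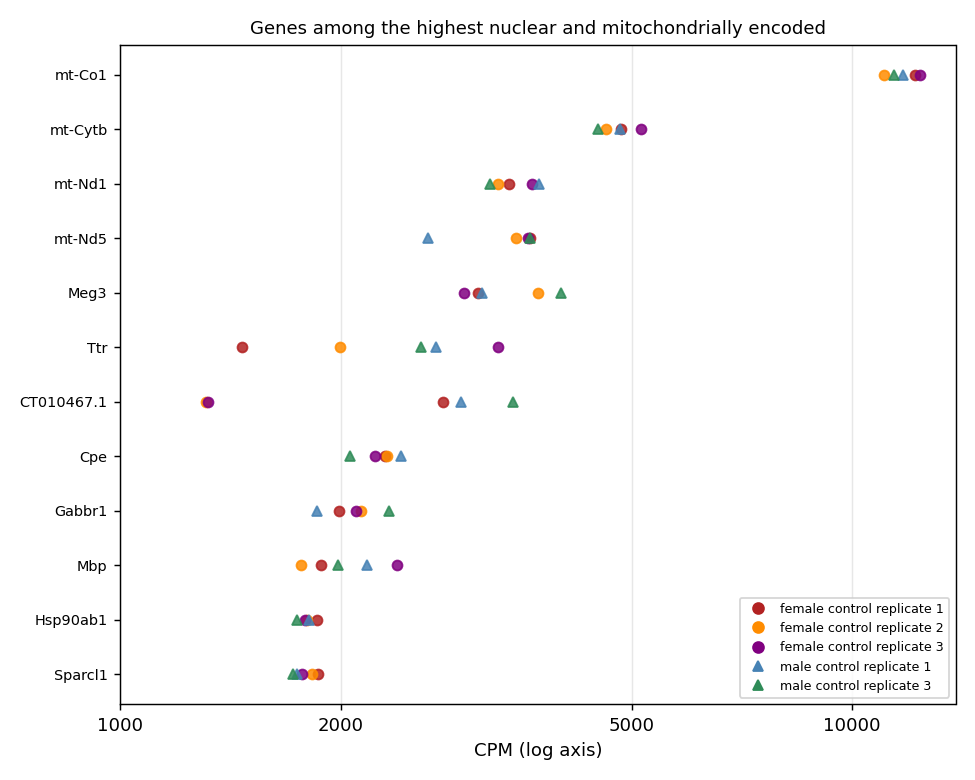
CPM (log axis) of the genes named in the text from the 15 nuclear and 5 mitochondrially encoded genes with the highest mean over the 5 control libraries, each point being 1 library. Ttr spans 1467 to 3286 CPM and CT010467.1 1309 to 3438 CPM, while Hsp90ab1 spans 1745 to 1859 CPM.

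The order by reads and the order per length overlapped in part: 55 of the 100 genes highest in CPM were also among the 100 highest in TPM. Gm23935, an annotated feature of 57 bases, took 7.81% of all TPM. With features under 200 bases left out, an alternative chosen after the data were seen, 58 of the 100 were shared.

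All 5 glutamate release genes were at or above 1 CPM in every library. Slc17a6, the vesicular glutamate transporter of habenula and thalamus, measured 510, 698, 535, 585 and 561 CPM and 390 ± 57.9 TPM. The TPM range of Slc17a7, 336 ± 46.1, overlapped it. With the longest transcript as gene length, in place of all exons, Slc17a7 was the higher of the pair. The related transporter gene Slc17a8 was at 1.5 ± 0.542 TPM.

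GABA synthesis genes were low and uneven. Gad1 measured 105, 12.4, 53.5, 11.2 and 10.1 CPM, Gad2 58.1, 27.0, 48.4, 18.1 and 22.8 CPM, and the vesicular transporter gene Slc32a1 27.8, 3.18, 9.67, 2.82 and 2.64 CPM. Female control 1 and 3 were above the other 3 libraries in all of them, with no overlap, and the same 2 libraries were the highest of the hippocampus and cortex list. Without female control 1 the mean of Gad1 was 21.8 CPM against 38.5 CPM with it. The GABA transporter of astrocytes, Slc6a11, was far higher per length at 563 ± 64.6 TPM and was even, at 747, 873, 672, 800 and 821 CPM.

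All 4 acetylcholine genes were at or above 1 CPM in every library. The esterase gene Ache was highest at 166 ± 17 TPM. The choline transporter gene Slc5a7, the vesicular transporter gene Slc18a3 and Chat followed at 49.4 ± 14.1, 47.8 ± 8.47 and 24.0 ± 6.83 TPM, with Slc5a7 and Slc18a3 overlapping. Of 13 monoamine genes 7 were detected at 1 CPM in all libraries. The degrading enzymes Maob and Maoa were at 131 ± 18.6 and 66.7 ± 9.12 TPM, while Th, the first enzyme of dopamine synthesis, stood at 8.64 ± 2.21 TPM.

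Of 38 neuropeptide precursor genes, 16 were at or above 1 CPM in all 5 libraries and 2, Kiss1 and Rln3, had 0 counts in all 5, which allows up to 0.106 to 0.116 CPM a library (3 counts). Cck, the cholecystokinin precursor, and Tac2 led per length at 452 ± 134 and 381 ± 68.6 TPM, with overlapping ranges. Cck measured 203, 169, 88.6, 224 and 136 CPM, lowest in female control 3. Adcyap1, the PACAP precursor, was even at 48.9, 40.4, 55.1, 51.7 and 51.7 CPM. The precursors Sst, Npy and Vip, which cortical interneurons express, were high in female control 1. Sst measured 49.3, 8.44, 12.5, 9.03 and 7.63 CPM, Npy 14.1, 1.02, 1.84, 1.32 and 0.868 CPM, and Vip 8.32, 0.235, 0.374, 0.338 and 0.181 CPM. Without that library their means were 9.39, 1.26 and 0.282 CPM.

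Receptor genes were ordered per length within each family. Among 16 nicotinic acetylcholine receptor subunits, 8 were at or above 1 CPM in all libraries. Chrna4 was at 127 ± 26.0 TPM, Chrna3 at 111 ± 24.2, Chrnb4 at 100 ± 21.6 and Chrnb2 at 87.2 ± 9.98 TPM, and each of these overlapped its neighbour in the order. Chrnb3 followed at 36.1 ± 8.74 TPM, below all 4 with no overlap, and Chrna7 at 6.57 ± 1.20 TPM. Chrna3 and Chrnb4, subunits of the medial habenula receptor and neighbours on chromosome 9, measured 145, 139, 199, 134 and 186 CPM and 88.2, 87.1, 123, 90.3 and 122 CPM. Chrna4, which thalamic neurons also express, measured 156, 219, 132, 183 and 187 CPM. Chrna3 was thus highest in female control 3, the library in which Chrna4 was lowest. Among muscarinic receptors Chrm2 and Chrm3 led at 23.4 ± 6.11 and 21 ± 2.80 TPM, while Chrm1, abundant in cortex and hippocampus, was highest in female control 1 and 3 at 56.8 and 31.1 CPM against 9.38 to 14.3 CPM.

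Of 14 serotonin receptor genes 9 were detected in all libraries. Htr5b, on chromosome 1, led the family at 178 ± 35.5 TPM and measured 86.2, 76.4, 114, 87.6 and 109 CPM. Htr2c at 76.8 ± 11.3 TPM, Htr7 at 43.9 ± 6.33 TPM and Htr5a at 13.2 ± 1.48 TPM followed, and the ranges of these 4 genes did not overlap. Htr1a, the inhibitory receptor common in hippocampus, measured 3.54, 0.549, 2.62, 0.263 and 0.795 CPM, again with female control 1 and 3 above the others. The presynaptic histamine receptor gene Hrh3 was the highest of 18 dopamine, adrenergic and histamine receptors at 212 ± 47.7 TPM, with no overlap with Adra1b at 68.3 ± 21.6 TPM. Drd2, the inhibitory dopamine receptor of the habenula, was at 18.7 ± 2.90 TPM and Drd1 at 1.70 ± 0.365 TPM.

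**Figure D4:**
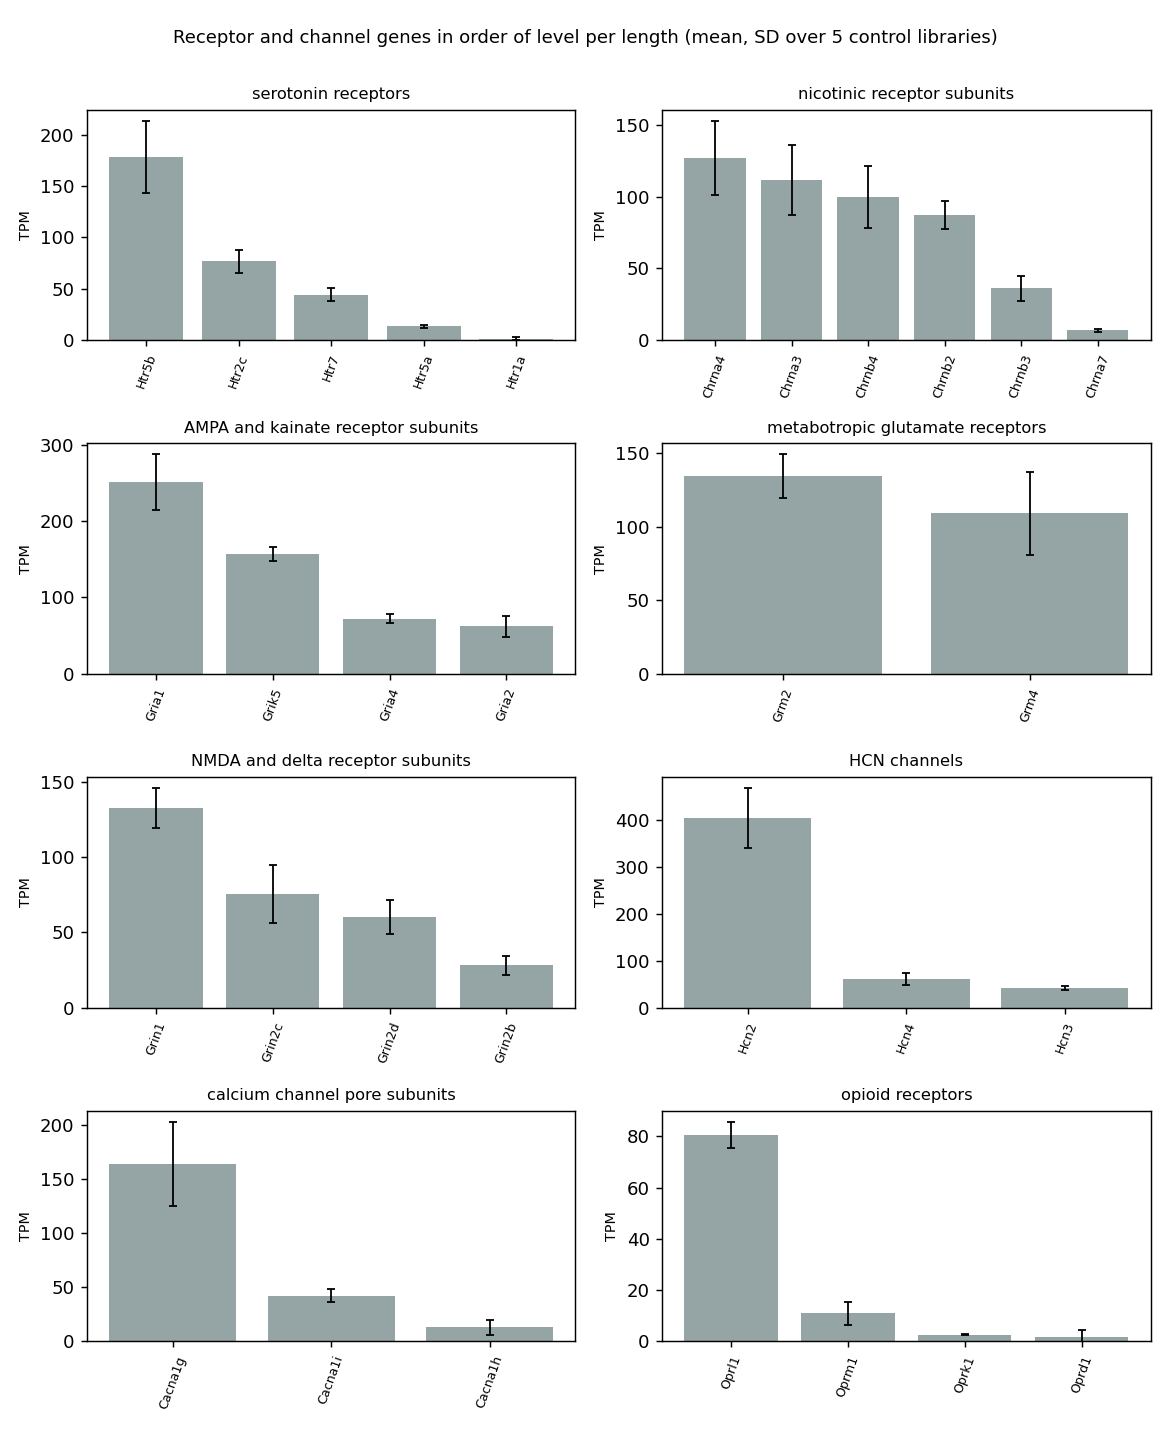
Mean TPM (bars) and SD (error bars) over the 5 control libraries for the members of 8 receptor and channel lists that the text names, in order of level. Htr5b at 178, Hcn2 at 404, Cacna1g at 164 and Oprl1 at 80.5 TPM stand above the next member of their list without overlap, and the first 4 nicotinic subunits overlap in sequence.

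Opioid receptor genes were led by Oprl1, the nociceptin receptor, at 80.5 ± 5.06 TPM, whose 5 values of 78.8, 80.4, 83.3, 89.5 and 83.8 CPM had a spread of 0.07. Oprm1, the mu receptor, was at 10.9 ± 4.48 TPM and measured 27.8, 28.0, 19.3, 9.97 and 34.4 CPM. Its lowest value was in male control 1, the library in which long transcripts were low, and the part of length in that value was not tested. Oprd1, the delta receptor, measured 7.35, 0.746, 1.43, 0.301 and 0.651 CPM, high in female control 1 alone, and had a mean of 0.782 CPM without it. Oprk1, the kappa receptor, was even at 5.99 to 6.99 CPM.

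Among 43 neuropeptide receptors 32 were detected in all libraries, led by Ntsr2, a neurotensin receptor of astrocytes, at 165 ± 14.2 TPM and Adcyap1r1, the PACAP receptor, at 145 ± 12.6 TPM, with overlapping ranges. Tacr1, the substance P receptor, was at 21.3 ± 4.86 TPM and was highest in female control 3 and male control 3, at 47.7 and 44.0 CPM against 31.8 to 33.1 CPM. Of 18 orphan receptors 17 were detected, with Gpr37l1 at 358 ± 12.4 and Gpr151 at 336 ± 69.5 TPM overlapping at the top. Gpr139, an orphan receptor known from the medial habenula, was at 27.1 ± 6.18 TPM and measured 32.2, 30.9, 46.7, 30.3 and 39.6 CPM. The adenosine receptor gene Adora1 at 87.0 ± 10.9 TPM exceeded the cannabinoid receptor gene Cnr1 at 39.2 ± 9.03 TPM without overlap.

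Fast glutamate receptor genes were all present, 9 of 9 for AMPA and kainate subunits. Gria1 was highest at 252 ± 36.1 TPM, Grik5 next at 157 ± 8.90 TPM, and Gria4 and Gria2 followed with overlapping ranges at 72.4 ± 6.13 and 62.2 ± 13.7 TPM. All 9 NMDA and delta subunits were detected too, with the obligatory subunit Grin1 at 132 ± 13.2 TPM. Grin2c and Grin2d, at 75.6 ± 19.4 and 60.1 ± 11.4 TPM, overlapped each other and came next in order, while Grin2b stood at 28.1 ± 6.36 TPM. Grin2c measured 103, 124, 63.0, 137 and 98.2 CPM, lowest in female control 3. Among metabotropic receptors Grm2 was at 134 ± 14.9 TPM and Grm4 at 109 ± 28.1 TPM. Grm4 measured 157, 225, 118, 228 and 171 CPM, lowest in female control 3, the library that was also lowest in thalamus markers.

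Inhibitory receptor genes were dominated per length by the 2 GABA B subunits, Gabbr1 at 977 ± 121 TPM and Gabbr2 at 486 ± 67.9 TPM. Of 26 GABA and glycine receptor genes 20 were detected in all libraries. Glrb, the anchoring glycine receptor subunit, was at 154 ± 12.3 TPM and overlapped the GABA A subunit gene Gabra4 at 121 ± 23.5 TPM. Gabrd, a subunit of extrasynaptic receptors in thalamus and dentate gyrus, measured 84.0, 92.1, 35.9, 104 and 72.8 CPM, lowest in female control 3. Gabrb2 measured 140, 168, 86.9, 70.8 and 150 CPM, lowest in male control 1.

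Channel families followed. Among HCN pacemaker channel genes Hcn2 was at 404 ± 64.4, Hcn4 at 61.2 ± 12.2 and Hcn3 at 42.2 ± 3.96 TPM, with no overlap between neighbours in that order. Hcn2 measured 336, 384, 290, 452 and 321 CPM. Cacna1g, the T-type calcium channel of thalamic bursting, led 10 pore subunits at 164 ± 38.8 TPM and measured 433, 578, 298, 477 and 495 CPM. Its T-type relatives Cacna1i and Cacna1h were at 42.2 ± 6.14 and 12.9 ± 6.66 TPM, and Cacna1h measured 46.4, 22.1, 59.7, 19.4 and 25.1 CPM, with female control 1 and 3 above the rest. Among sodium channel genes the auxiliary subunit gene Scn2b was at 325 ± 32.4 TPM, and the pore subunit genes Scn2a and Scn8a overlapped at 77.7 ± 12.9 and 64.1 ± 10.5 TPM.

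Of 40 voltage-gated potassium channel subunits 33 were at or above 1 CPM in all libraries. Kcnd2, an A-type channel, was first at 183 ± 21.4 TPM, and Kcnc2, Kcna2, Kcnh2 and Kcng4 followed at 138 ± 33.9, 130 ± 22.7, 129 ± 15.5 and 124 ± 12.5 TPM, each overlapping the next. Of the 35 that averaged 1 CPM or more, 11 had a spread above 0.5, against 1.68% of the 12280 genes that averaged 5 CPM or more. Kcnh3, a channel of forebrain neurons, measured 82.6, 3.30, 11.2, 3.27 and 2.60 CPM, and Kcnv1 26.8, 0.746, 2.82, 0.790 and 0.759 CPM, both highest in female control 1, while Kcna3 was lowest in male control 1 at 5.79 CPM against 13.6 to 19.9 CPM. Kcnj10 led the inward rectifiers and 2-pore channels, followed without overlap by Kcnj9, a partner of receptor-gated potassium channels, at 151 ± 27.0 TPM. Kcnma1, the large-conductance calcium-activated channel, was at 157 ± 40.0 TPM. Among the TRP channels Trpm3, with a long transcript, measured 147, 157, 171, 82.1 and 184 CPM, lowest in male control 1.

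Genes that mark a state of the tissue were read the same way. Among 15 measured immediate early genes, 14 were at or above 1 CPM in all libraries, with a level of 4.36 in female control 1 against 3.10 to 3.51 in the other 4. Fos, an activity-induced transcription factor, measured 34.2, 35.6, 34.0, 17.8 and 31.6 CPM, lowest in male control 1. Egr1 measured 109, 47.8, 43.3, 37.2 and 49.9 CPM, Egr3 70.4, 5.57, 15.9, 4.44 and 6.87 CPM, and Arc, a synaptic activity gene, 88.8, 19.4, 30.5, 20.5 and 23.0 CPM. All 3 were highest in female control 1, in which Fos did not stand out. Forebrain markers moved with the list in that library, and their part in it was not tested. Of 14 cytokine and acute inflammatory genes only Vcam1, a vascular adhesion molecule, at 30.4 ± 4.63 CPM, and Icam1 at 1.93 ± 0.189 CPM reached 1 CPM in every library. The stress and metal-response gene Mt1 was the highest of 11 glucocorticoid response genes at 418 ± 35.9 TPM.

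All 14 circadian clock genes were detected, with a median spread of 0.20. Dbp and Tef, output factors of the clock, had spreads of 0.06 and 0.10. Dbp measured 134, 135, 124, 132 and 141 CPM and Tef 349, 315, 302, 286 and 313 CPM. Per1, a repressor of the clock loop, measured 122, 139, 113, 97.3 and 140 CPM, and Bhlhe41, another repressor, 67.2, 66.0, 73.5, 63.3 and 71.7 CPM. Per2 was the least even at 37.5, 28.8, 36.4, 19.9 and 48.0 CPM. Clock factors bind the E-box CACGTG, a palindrome that reads the same on both strands. In the 250 bases before the annotated start it occurred in 5 of 13 matched clock genes (38.5%) and in 6.86% of 27025 genes with a RefSeq promoter. It also occurred in 3 of 11 matched genes (27.3%) in each of the immediate early, medial habenula and thalamus lists. It occurred in 1 of 8 matched habenula transcription factors and in none of the 4 matched lateral habenula and 10 matched choroid plexus markers. With so few matched genes, a count of 0 does not set these lists apart. It was 1 of 4 motifs searched in 7 lists, and the clock set was chosen for display after the matches were counted, so the shares are a description only. The 250 bases before the start are shown for Tef, Per1 and Bhlhe41, highest in TPM of the 5 clock genes with the motif. The E-box, in capitals, lies at positions -127 in Tef, -166 in Per1 and -153 in Bhlhe41. The sequences are from RefSeq on GRCm38.p6, at chr15:81802423-81802672 on the plus strand, chr11:69098699-69098948 on the plus strand and chr6:145865421-145865670 on the minus strand.
Tef: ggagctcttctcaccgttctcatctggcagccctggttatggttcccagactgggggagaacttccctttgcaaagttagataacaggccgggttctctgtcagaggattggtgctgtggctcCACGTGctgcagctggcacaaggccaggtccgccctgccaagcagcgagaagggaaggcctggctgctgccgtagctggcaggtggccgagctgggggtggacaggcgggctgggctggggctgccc
Per1: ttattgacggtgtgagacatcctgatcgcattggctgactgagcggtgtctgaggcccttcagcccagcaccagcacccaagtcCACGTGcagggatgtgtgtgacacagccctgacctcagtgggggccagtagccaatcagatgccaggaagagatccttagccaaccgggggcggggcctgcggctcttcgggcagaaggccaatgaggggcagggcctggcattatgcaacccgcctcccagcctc
Bhlhe41: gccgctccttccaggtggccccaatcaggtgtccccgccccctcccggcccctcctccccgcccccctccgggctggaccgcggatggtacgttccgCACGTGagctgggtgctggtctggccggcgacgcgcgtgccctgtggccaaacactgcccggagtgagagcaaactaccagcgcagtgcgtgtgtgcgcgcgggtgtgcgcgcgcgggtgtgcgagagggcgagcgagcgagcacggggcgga

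Spread over the 5 libraries was measured in the 12280 genes that averaged 5 CPM or more. Their median spread was 0.15, against 0.05 from counting alone, and 9594 genes (78.1%) lay above 2 times their counting value. A spread above 0.5 was found in 206 genes (1.68%), and 2687 (21.9%) were below 0.1. Of the 206, female control 1 was the highest library in 121 and male control 1 the lowest in 98. Without female control 1, 177 genes were above 0.5, of which 117 were among the 206.

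The 5 largest spreads belonged to Xist and the Y-linked genes Ddx3y, Eif2s3y, Kdm5d and Uty, which separate the sexes. The next 15 all had their highest value in female control 1. They include the forebrain factor Tbr1, the interneuron and cortical gene Lamp5 at 57.5, 1.41, 1.91, 1.02 and 0.976 CPM, the GABA genes Gad1 and Slc32a1, and the channel genes Kcnh3, Kcnv1 and Kcnj4. In 13 of the 15 the second highest library was female control 3. Gapdh, a glycolytic enzyme often used as a reference, was not among those 13 and measured 125, 13.3, 14.3, 14.8 and 15.2 CPM. Gapdh has many near-identical pseudogene copies that could share its reads, so its level is uncertain. The cause of its high value in female control 1 was not tested. Other reference genes were more even, with spreads of 0.17 in Actb and 0.49 in Ppia.

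**Figure D5:**
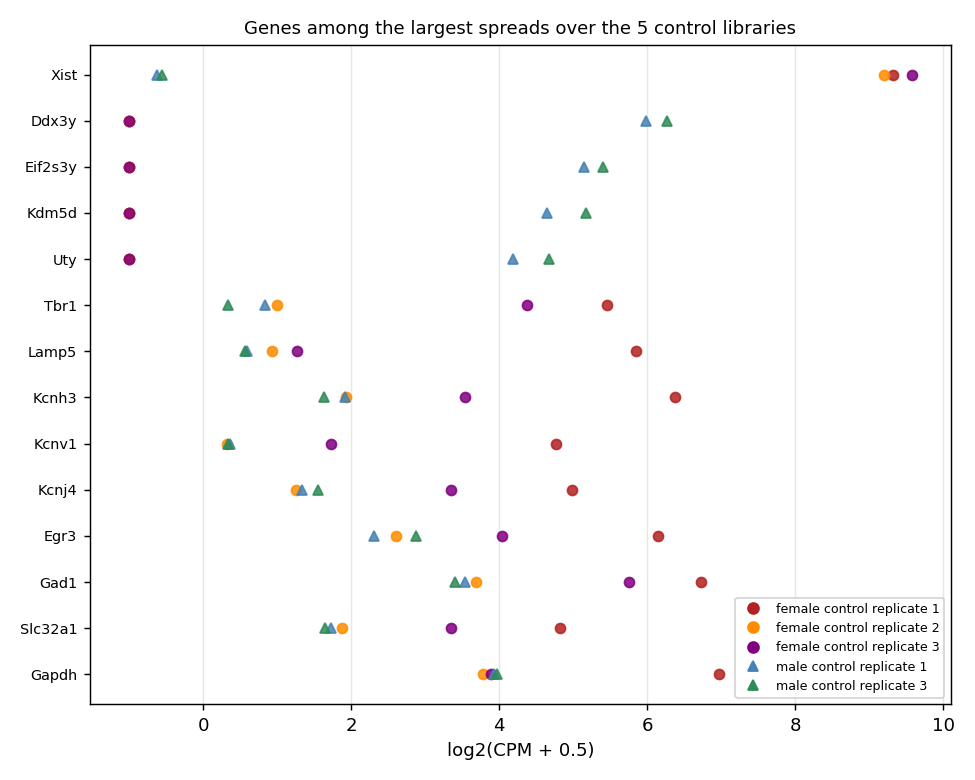
log2(CPM + 0.5) of the genes named in the text from the 20 with the largest spread over the 5 control libraries among those that average 5 CPM or more, each point being 1 library. Below the 5 sex-linked genes, female control 1 is the highest point of every gene.

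At the other end were the most even genes that averaged 20 CPM or more. Cog1, a Golgi tethering subunit, measured 60.3, 59.6, 59.8, 60.8 and 59.9 CPM. The kinase gene Mark3 measured 79.5, 80.0, 80.5, 81.4 and 79.9 CPM, and Tmem65, a mitochondrial membrane protein, 110, 110, 109, 109 and 111 CPM. Their spreads of 0.01 were below the 0.03 to 0.04 that counting alone gives on average. In 934 of the 12280 genes (7.61%) 1 library lay beyond Dixon's 95% value. Male control 1 was the outlying library most often, high in 244 genes and low in 338.

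Females and males were compared among the controls with edgeR's quasi-likelihood test, which asks what differs with sex at baseline. Of 19619 genes tested 7 passed an adjusted p of 0.05 (0.0357%), 2 higher in females (0.0102%) and 5 lower (0.0255%). Xist, the noncoding RNA that silences 1 X chromosome in females, measured 643, 586 and 762 CPM in females and 0.15 and 0.181 CPM in males, a log2 difference of 11.93 (SE 0.74, adjusted p 0.000463). Eif2s3x, a translation initiation factor on the X, measured 104, 109 and 105 CPM in females and 61.3 and 64.9 CPM in males, a log2 difference of 0.75 (SE 0.08, adjusted p 0.000624). In neither gene did the sexes overlap.

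The 5 genes lower in females were on the Y and had 0 counts in all 3 female libraries, so every library matched its sex label. Ddx3y, an RNA helicase, measured 63.1 and 76.3 CPM in males and was at least 1876-fold lower in females, taking 3 counts over the group as the floor. Its X-linked partner Ddx3x measured 339, 374 and 402 CPM in females and 239 and 259 CPM in males. That log2 difference of 0.58 (SE 0.10) missed the threshold at an adjusted p of 0.0659, but passed with DESeq2 (adjusted p 1.01e-06) and with no filter on low counts (adjusted p 0.000124). Eif2s3y, Kdm5d and Uty were at least 1031-, 810- and 577-fold lower in females, and the predicted gene Gm29650 at least 81.7-fold lower.

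No autosomal gene passed. An unadjusted p under 0.05 was found for 1306 genes, where 981 would be 5% of those tested. The count of 7 became 19 without female control 2 and 42 without male control 3, and Xist had an adjusted p of 0.0519 without male control 1, which left 1 male library. With only the 5 control libraries in the fit 6 genes passed and Eif2s3x had an adjusted p of 0.221.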

How the data were processed

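Total RNA of LHb tissue had been sequenced on 11 libraries. The authors deposited raw read counts per gene. Per the submitters' processing notes they used cutadapt 1.9.1, HISAT2 2.0.5, featureCounts 1.5.0-p3 and GRCm38; neither the annotation release nor the strand setting is stated there, and overlapping or antisense genes therefore cannot be told apart. Of 54532 genes, 54495 matched GENCODE M21, which supplied exon lengths and positions. All columns matched 1 sample label each. The 5 control libraries held 25839148 to 28411529 counts, and 3 counts corresponded to 0.106 to 0.116 CPM. None of the 4 pairs of control libraries of the same sex agreed within sampling noise.

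CPM was computed from counts and library totals scaled by TMM (edgeR 4.0.16, R 4.3.3, factors from all 11 libraries), and TPM from counts and the summed length of all exons. Spread was the SD over 5 libraries of log2(CPM + 0.5), for genes averaging 5 CPM or more, beside the Poisson value. Dixon's test (0.71 for 5 values) used the same scale. Females and males were compared by edgeR's quasi-likelihood test over 4 groups with Benjamini-Hochberg adjustment. Counts were simulated for that comparison and its 19619 genes, with changes planted only in genes averaging 1 CPM or more. Such changes were planted in 67 genes at 1.5-fold, 67 at 2-fold and 66 at 4-fold. Of these changes 47.8% of 1.5-fold, 74.6% of 2-fold and 95.5% of 4-fold were recovered, with 11 false calls. Only 7 genes passed in the real libraries, and Benjamini-Hochberg adjustment is stricter when fewer genes change, so recovery there may be lower. Each gene was drawn independently, without differences that many genes of a library share, so recovery in the real libraries may differ. The promoter sequences came from RefSeq.

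Some genes of the lists are not reported here. The libraries, the 51 gene lists and the tests were chosen with earlier results of these data known. Named genes are the 15 nuclear and 5 mitochondrially encoded genes highest in CPM, the 20 largest and 8 smallest spreads, the 5 highest in TPM and 2 most variable of each list, genes passing the female-male test, list members at 0 counts, and a short list of habenula, tissue and sex genes. Bhlhe41, Chrna7, Gabrb2, Gpr139, Kcna3, Per1, mt-Co2, Ddx3x as a test result and the long noncoding RNAs other than Meg3 and Xist were named after their values were seen. No paired analysis was made the main one, since the libraries share only a number. Alternatives were other size factors, filters, pseudocounts, gene lengths, DESeq2 1.42.0, a replicate block and leaving out each library.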

Additional observations from a re-analysis of the deposited data

Results flagged for a closer look

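The 5 control libraries were searched for single values beyond Dixon's 95% limit, in 165 genes and 51 lists, where chance alone gives about 1 in 20. It was passed by 10 genes and 2 lists. Over all 12280 genes that average 5 CPM or more the share was 7.61%, so the number of genes is not a result about them, and their values are given as a description. Female control 1 was the outlying high library for the immediate early gene Egr1 at 109 CPM, Gapdh at 125 CPM, the cortical gene Lamp5 at 57.5 CPM and the interneuron peptide precursors Npy at 14.1 CPM, Sst at 49.3 CPM and Vip at 8.32 CPM. Female control 3 was high for the astrocyte gene Gfap at 392 CPM. Male control 1 was low for Fos at 17.8 CPM, the channel gene Trpm3 at 82.1 CPM and mt-Nd5 at 2634 CPM. It was also low for the AMPA and kainate receptor list, at a level of 6.31, and for the sodium channel list, at a level of 4.73.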

How the results depend on the processing

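The number of genes detected in all 5 controls was 13518 to 16083 at 2 and 0.5 CPM. The 100 highest genes held 12.9% of counts with the mitochondrial genome left out. A spread above 0.5 was met by 430 genes at a mean of at least 1 CPM, 94 at 20 CPM, and 177 to 294 with 1 library left out. Of 25 transmitter, receptor and channel lists, 21 kept their highest member with the longest transcript as length; there Slc17a7, Chrm3, Grm4 and Kcnc2 led theirs. In the comparison of sexes 396 genes passed with no filter (332 higher and 64 lower in females), 17 with DESeq2 (7 and 10), 6 with only the controls in the fit (1 and 5) and 6 to 42 with 1 library left out (1 to 33 and 5 to 9; the lone male sample is then assumed to vary like the other groups). The cause was not tested. Ddx3x passed with DESeq2 (adjusted p 1.01e-06), with no filter (0.000124) and without male control 3 (0.0474), over a range up to 0.996. Deviations of equally numbered female and male controls from their group means correlated at 0.0693 and 0.0906. The 2 male deviations mirror each other, so these values cannot decide whether the numbers pair libraries, and no pairs were assumed. With the replicate block 7 passed (2 and 5), the same genes. The 5 Y-linked genes passed under each of these. In simulated counts 47.8% of 1.5-fold and 74.6% of 2-fold differences were recovered, planted only in genes averaging 1 CPM or more. With 67 genes changed at each of those folds and 66 at 4-fold, these shares may be too high where few genes change.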

Other observations

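Long noncoding RNAs other than Meg3 and Xist belong to no list of the report. Annotated lincRNA genes numbered 275 of 5535 at or above 1 CPM in all 5 libraries and held 0.891% of counts. The transcript 2900097C17Rik measured 1017, 1086, 927, 1023 and 932 CPM. Rian, from the same imprinted region of chromosome 12 as Meg3, was even at 656, 666, 647, 724 and 698 CPM, and Peg13, another imprinted RNA, measured 455, 467, 393, 440 and 459 CPM. Malat1, a nuclear RNA of most cells, measured 584, 524, 661, 663 and 969 CPM, highest in male control 3, the library that was also highest in Meg3.

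Granins, the acidic proteins of peptide secretory granules, were all 7 detected at a level of 7.97 to 8.33, highest in male control 1 and lowest in female control 3. Pcsk1n, which encodes an inhibitor of a prohormone convertase, led them at 1979 ± 328 TPM and measured 1234, 1146, 992, 1594 and 1038 CPM. Camk2b, a synaptic kinase subunit, measured 687, 653, 562, 647 and 576 CPM. Pan-neuronal genes showed the same 2 libraries at the ends of their range, with a level of 8.93 in male control 1 and 8.65 in female control 3. Genes with the shortest transcripts were a median of 0.27 higher in male control 1 on the log2 scale. The part of transcript length in the granin and pan-neuronal levels was not tested.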
